A study of Mus musculus with 6 samples.

Results

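The 10 genes described here code for receptors by which phagocytes and dendritic cells (DC) take up particles and antigen or sense antibody and complement: Cd36, Msr1, Marco, Mrc1, Clec7a, Fcgr1, Fcgr2b, Fcgr3, Cd93 and C5ar1. They were chosen by symbol, and every probe set of the array whose platform annotation gives exactly 1 of these symbols was read. This gave 19 probe sets for the 10 genes, out of 22626 non-control probe sets and 12393 named genes in all. Of the 19, 18 exceeded a signal floor of 53.5 on all 6 arrays. The remaining one, the third Cd36 probe set 1450884_at, exceeded it on the AdIkBa-SR array alone and was not tested.

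The cells were mouse DC grown from bone marrow, which the labels describe as taken from a female CAR-transgenic mouse aged 13 weeks. All groups therefore carry the transgene, whose promoter the labels used here do not name. Progenitors were expanded for 7 days, and differentiation with GM-CSF at 250 U/ml took another 7 days. The untreated group received neither virus nor cytokine, and the TNFa group received TNFa at 50 ng/ml for 4 h and no virus. The AdOVA and AdIkBa-SR groups received the adenovirus of that name at 1500 particles per cell for 2 h, followed by 18 h of culture. The AdOVA+TNFa and AdIkBa-SR+TNFa groups received the same viruses and then TNFa at the same dose and time. AdOVA served as the control virus. AdIkBa-SR carries a super-repressor form of IkBa, the inhibitor that keeps the NF-kB transcription factors out of the nucleus. No group was taken through the transduction steps without virus, so the virus and the procedure cannot be told apart.

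DC sample their surroundings with scavenger receptors, lectins and Fc receptors, and immature cells are known for high uptake. Maturation signals that act through NF-kB are known to shift DC from uptake towards antigen presentation and migration. Fc receptors bind the constant part of IgG, and activating members signal through a shared gamma chain, while Fcgr2b inhibits. C5ar1 binds the complement fragment C5a and guides phagocytes towards sites of complement activation.

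The proximal promoters of 4 members are shown because these genes stand at the ends of the patterns described below: Cd36 and C5ar1, higher with AdIkBa-SR than with AdOVA, Fcgr1, higher with AdOVA, and Fcgr3, whose groups lay close together. Each is the 250 bases before the annotated start from RefSeq (GRCm38.p6), written 5′ to 3′ on the strand of the gene, and 8 of the 10 genes matched an entry. Capitals mark letters that match a kappaB motif (GGG and CC separated by any 5 bases, the site class of NF-kB), a GAS motif (TTC and GAA separated by any 3 bases, bound by STAT factors), an ISRE motif (GAAA and GAAA separated by any 2 bases, bound by interferon-activated factors) or a PU.1 core (GAGGAA, PU.1 being a myeloid factor), on either strand.
Cd36, chr5:17835897-17836146, minus strand: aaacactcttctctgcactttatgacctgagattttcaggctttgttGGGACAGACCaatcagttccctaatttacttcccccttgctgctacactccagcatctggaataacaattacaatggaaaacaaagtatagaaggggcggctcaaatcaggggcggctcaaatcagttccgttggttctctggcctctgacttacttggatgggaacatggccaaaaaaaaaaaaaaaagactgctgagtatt
C5ar1, chr7:16259339-16259588, minus strand: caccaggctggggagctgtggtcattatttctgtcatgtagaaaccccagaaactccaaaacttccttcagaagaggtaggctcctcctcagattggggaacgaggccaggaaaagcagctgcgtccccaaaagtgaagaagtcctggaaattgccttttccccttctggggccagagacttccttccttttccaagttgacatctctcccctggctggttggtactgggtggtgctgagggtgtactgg
Fcgr1, chr3:96293970-96294219, minus strand: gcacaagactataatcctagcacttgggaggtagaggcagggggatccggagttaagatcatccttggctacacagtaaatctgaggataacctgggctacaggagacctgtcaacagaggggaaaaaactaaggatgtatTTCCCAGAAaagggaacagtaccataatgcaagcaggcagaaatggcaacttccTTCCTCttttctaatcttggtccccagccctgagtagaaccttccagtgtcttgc
Fcgr3, chr1:171059404-171059653, minus strand: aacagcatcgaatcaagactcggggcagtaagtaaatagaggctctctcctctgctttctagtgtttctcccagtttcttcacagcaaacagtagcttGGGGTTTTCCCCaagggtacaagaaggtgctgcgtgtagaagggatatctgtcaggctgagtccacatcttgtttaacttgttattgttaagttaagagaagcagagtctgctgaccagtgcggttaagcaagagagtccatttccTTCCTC
A kappaB match lies 203 to 194 bases before the Cd36 start. Fcgr1 holds a GAS match 109 to 101 bases before its start and a PU.1 core at 55 to 50. In Fcgr3, 4 overlapping kappaB matches form the run GGGGTTTTCCCC at 152 to 141 bases before the start, and a PU.1 core ends at the start. The C5ar1 window holds none of these letters. Over the 8 genes, kappaB matched in 5, PU.1 in 5, GAS in 1 and ISRE in 0. Of all 32851 promoter windows of this length, 45.8% held a kappaB match, 23.3% a PU.1 core, 7.02% a GAS match and 2.98% an ISRE match. These are letter matches in 1 window per entry and describe no binding.

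Each group was measured on 1 array, so a difference between arrays cannot be checked against replicates, and the labels do not say whether the groups were separate cultures. Changes are given as the signals of single arrays, as folds in 2 pairs without an array in common, and as a limma fit to all 6 arrays with 1 residual degree of freedom. "Rose" and "fell" mean an adjusted p under 0.05 in that fit (Benjamini-Hochberg over 14906 measured probe sets). The median signal of the arrays ran from 74.4 to 88.5, and 57.9% to 63.4% of probe sets exceeded the floor. A probe set for 18S ribosomal RNA read 2601 on the AdOVA+TNFa array and 120 to 537 on the others. One recorded hybridization time (round 1) covers the untreated, TNFa and AdOVA arrays, and another (round 2) the remaining arrays. The AdIkBa-SR array was also washed with 0 cycles in both recorded washes and stained first for 420 s, against 10 and 4 cycles and 600 s. Of 14 DC markers, 12 exceeded the floor on all arrays, while Flt3, a receptor of early DC, did so on 1. Nfkbia, the gene of IkBa, was read by 4 probe sets, each lower on the AdIkBa-SR array than on the untreated and AdOVA arrays, such as 10118 against 10622 and 16337 for the brightest. On the AdIkBa-SR+TNFa array each was also lower than on the AdOVA+TNFa array. Compared with the TNFa array, the brightest and the dimmest were lower, at 8571 against 10697 and 391 against 463. The others were higher, at 2997 against 2044 and 2723 against 1485. Whether the probes can read the super-repressor is not known here, so these signals do not show whether it was expressed. In RNA from whole cultures, fewer cells of a type and less RNA per cell cannot be told apart.

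With the control virus, Cd93 and Cd36 fell and Fcgr1 rose by their brightest probe sets, and 1 of the 4 Msr1 probe sets, not its brightest, fell. In the limma fit of AdOVA against no virus, 4 of 18 member probe sets fell, against 3.86% of all measured probe sets (575 of 14906). One member probe set, that of Fcgr1, rose, against 4.03% of all (600 of 14906). With the arrays brought to equal medians, 4 fell and 0 rose, and all measured probe sets split into 602 falling and 308 rising calls. With quantile normalization 2 fell and 0 rose, and the split was 85 falling to 180 rising. The median fitted log2 difference over the 10 genes, each read from its brightest probe set, was -0.46, and that of all measured probe sets was 0.06. All 5 calls, like every call of this comparison over the whole table, were lost when the round entered the fit as a block, when the AdOVA+TNFa array was left out, and when no filter on dim probe sets was applied. At an unadjusted p under 0.05, the fit with the block had 2 of 18 member probe sets and 2042 of all 14906. The fit without AdOVA+TNFa had 2 of 18 and 2062 of 14906, and that with no filter had 5 of 19 and 2185 of 22626.

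Cd93, Cd36, C5ar1 and Msr1 were higher with the super-repressor virus than with the control virus. The AdOVA array was in round 1, and the AdIkBa-SR array in round 2 with another wash. In that pair the virus, the round and the wash cannot be told apart. The AdOVA+TNFa and AdIkBa-SR+TNFa arrays shared round 2 and wash, but the former had the high 18S signal. In the fit averaged over both TNFa states, 7 of 18 member probe sets rose, against 3.47% of all (517 of 14906). None fell, against 3.39% of all (506 of 14906). At an unadjusted p under 0.05 none was lower, against 1886 of all 14906. With equal medians the member count was again 7, while the whole table split into 621 rising and 238 falling calls. With quantile normalization it was 4, with 43 rising and 105 falling. Cd93 ranked 3, Cd36 16 and C5ar1 48 among the 14906 fitted differences, counted from the highest. The median over the 10 genes was 0.77, and that of all measured probe sets was -0.09. In the fitted contrast without TNFa, 6 member probe sets rose (0.436% of all) and 0 fell (0.731% of all). In that with TNFa, 4 rose (2.35% of all) and 0 fell (1.66% of all). Both contrasts take the AdOVA level from the no-virus and AdOVA arrays of both TNFa states, so they are not single pairs of arrays. These 7 calls were lost in the same 3 fits as those of AdOVA, and 4 of them, on Cd36, Cd93 and C5ar1, held without the AdIkBa-SR array.

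**Figure D1:**
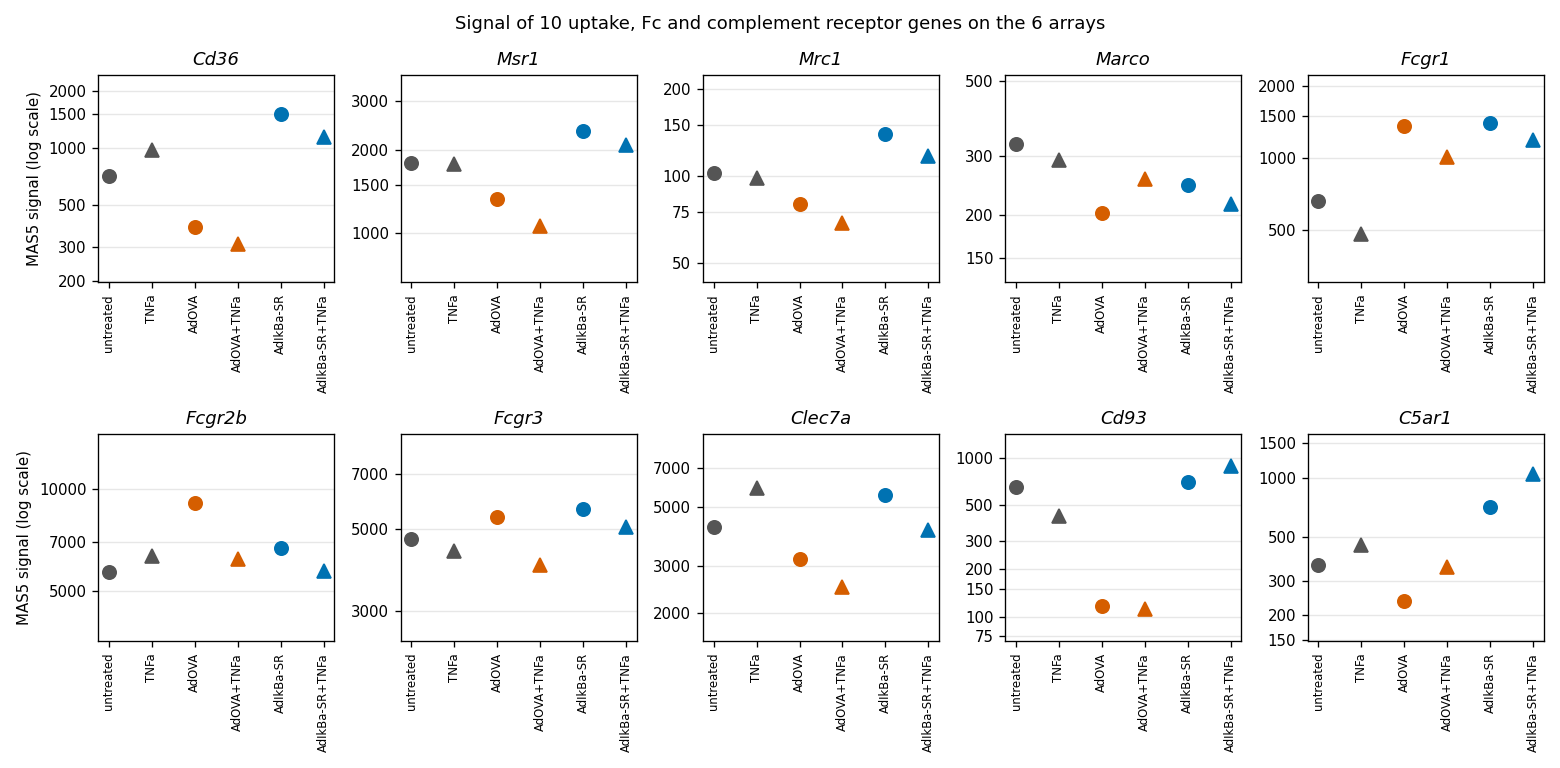
MAS5 signal of each of the 10 genes on the 6 arrays, read from the brightest probe set, on a log axis. Circles are arrays without and triangles with TNFa, in grey without virus, orange with AdOVA and blue with AdIkBa-SR. Each point is 1 array, so there are no error bars, and both orange points lie lowest for Cd36, Msr1, Mrc1, Clec7a, Cd93 and C5ar1.

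Among the scavenger receptors, Cd36, which binds oxidized lipoproteins and apoptotic cells, moved most. Its brightest probe set, 1450883_a_at, read 711 untreated and 969 with TNFa, 386 with AdOVA alone and 314 with AdOVA+TNFa, and 1514 with AdIkBa-SR alone and 1136 with AdIkBa-SR+TNFa. Both AdOVA arrays lay below both arrays without virus, and both AdIkBa-SR arrays lay above all others. AdOVA was 1.84-fold below untreated, both in round 1, and AdOVA+TNFa was 3.09-fold below TNFa. AdIkBa-SR was 3.92-fold above AdOVA, and AdIkBa-SR+TNFa was 3.62-fold above AdOVA+TNFa, the latter pair in round 2 with the same wash. Cd36 fell by 1.25 on the log2 scale with AdOVA (SE 0.25, limma adjusted p = 0.0048). That call held in 4 of 9 alternative fits. Cd36 was higher by 1.91 with AdIkBa-SR than with AdOVA (SE 0.25, limma adjusted p = 0.00016).

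A second Cd36 probe set, 1423166_at, read 592, 730, 242, 209, 1191 and 736 in the same order of arrays. It repeated the order of the virus states, with the AdIkBa-SR+TNFa and TNFa arrays next to each other. It fell by 1.55 on the log2 scale with AdOVA (limma adjusted p = 0.00087) and was 2.06 higher with AdIkBa-SR than with AdOVA (limma adjusted p = 7.6e-05). The dim probe set 1450884_at read 49.9, 53.2, 19.7, 17.8, 63.1 and 48.7, with both AdOVA arrays lowest. Probe sets of 1 gene share the RNA of each array and are not replicates.

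Msr1, the class A scavenger receptor for modified lipoproteins and bacterial surfaces, was read by 4 measured probe sets. Its brightest, 1422062_at, read 1792 untreated and 1782 with TNFa, 1334 with AdOVA alone and 1062 with AdOVA+TNFa, and 2337 with AdIkBa-SR alone and 2079 with AdIkBa-SR+TNFa. The virus states separated without overlap, AdOVA lowest and AdIkBa-SR highest. The AdOVA arrays were 1.34-fold and 1.68-fold below their partners without virus, and the AdIkBa-SR arrays 1.75-fold and 1.96-fold above their AdOVA partners. The difference between AdIkBa-SR and AdOVA was 0.89 on the log2 scale (SE 0.25, limma adjusted p = 0.036). That between AdOVA and no virus was -0.59 (SE 0.25, limma adjusted p = 0.16).

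The fitted differences of the other Msr1 probe sets had the same signs in both virus comparisons. Their virus states did not stand in the order of the brightest, since each read lower with AdIkBa-SR+TNFa than with TNFa. Probe set 1448061_at read 1029, 1672, 572, 621, 1400 and 1180, with both AdOVA arrays lowest. It fell by 1.14 on the log2 scale with AdOVA (limma adjusted p = 0.0078), a call that held in 3 of 9 alternative fits, and was 1.11 higher with AdIkBa-SR than with AdOVA (limma adjusted p = 0.011). Probe set 1425434_a_at was 0.86 higher with AdIkBa-SR than with AdOVA (limma adjusted p = 0.035). The dimmest, 1425435_at, read 114 to 237 and was not called in either comparison. It read 160 with AdOVA alone against 152 untreated, so that pair went the other way. The Msr1 calls between AdIkBa-SR and AdOVA held in 2 of 9 alternative fits, fewer than the 6 of 9 in which those of Cd36, Cd93 and C5ar1 held.

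Marco, a scavenger receptor that binds bacteria and particles, read 325 untreated and 291 with TNFa, 203 with AdOVA alone and 256 with AdOVA+TNFa, and 245 with AdIkBa-SR alone and 216 with AdIkBa-SR+TNFa. Both arrays without virus lay above the 4 with virus, and the AdOVA and AdIkBa-SR arrays overlapped. This placement, no-virus arrays highest, held for Marco alone among the members and for 7.55% of all measured probe sets. The fitted difference was -0.43 with AdOVA (SE 0.29, limma adjusted p = 0.38) and 0.01 between AdIkBa-SR and AdOVA (SE 0.29, limma adjusted p = 0.99).

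**Figure D2:**
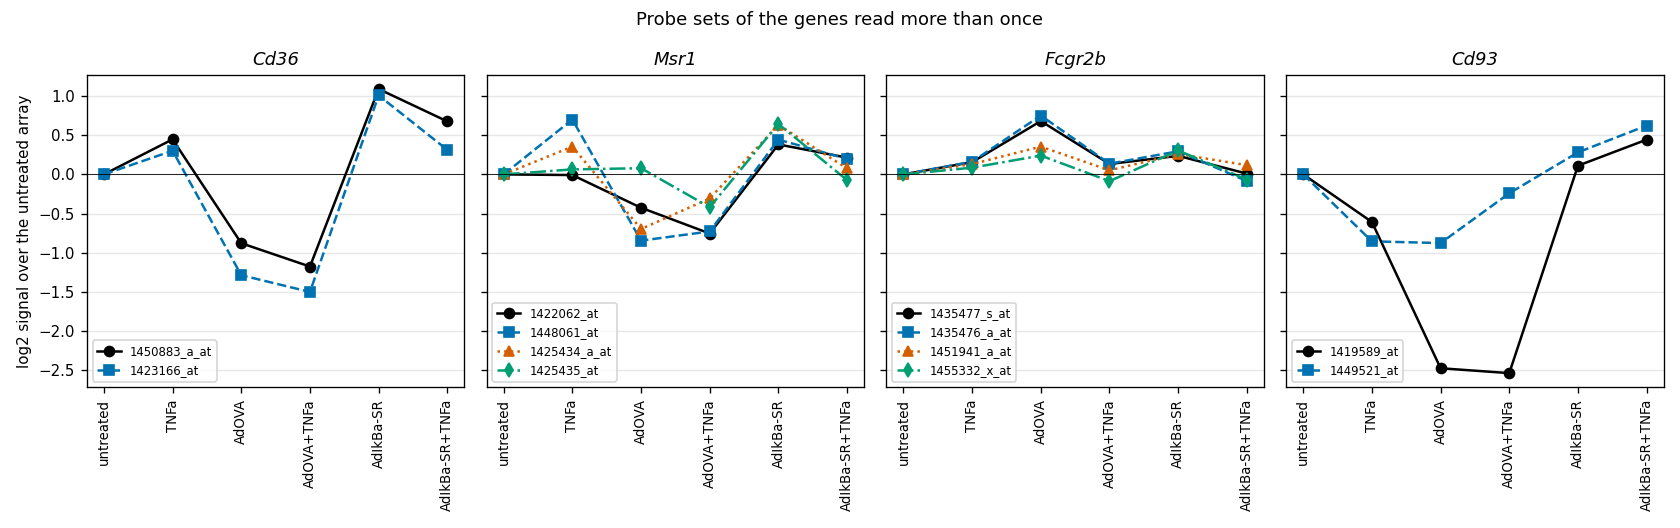
Log2 signal of each measured probe set over its own untreated array for the 4 genes read by more than 1 probe set, Cd36, Msr1, Fcgr2b and Cd93. Lines join the 6 arrays of 1 probe set, in the order given on the axis, and stand for no time course. The Cd36 probe sets move together, while the Cd93 probe set 1449521_at departs from 1419589_at on the AdOVA+TNFa array.

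Of the lectins, Clec7a (Dectin-1) binds fungal beta-glucan. It read 4195 untreated and 5894 with TNFa, 3183 with AdOVA alone and 2503 with AdOVA+TNFa, and 5556 with AdIkBa-SR alone and 4089 with AdIkBa-SR+TNFa. Both AdOVA arrays were lowest, and the arrays without virus and with AdIkBa-SR overlapped. AdOVA was 1.32-fold below untreated and AdOVA+TNFa 2.36-fold below TNFa, and the AdIkBa-SR arrays were 1.75-fold and 1.63-fold above their AdOVA partners. The fitted differences missed the threshold, at -0.82 for AdOVA (SE 0.30, limma adjusted p = 0.099) and 0.76 for AdIkBa-SR against AdOVA (SE 0.30, limma adjusted p = 0.13).

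Mrc1, the mannose receptor that takes up glycoproteins with terminal mannose, was dim. It read 102 untreated and 98.7 with TNFa, 79.9 with AdOVA alone and 68.7 with AdOVA+TNFa, and 140 with AdIkBa-SR alone and 117 with AdIkBa-SR+TNFa. The virus states did not overlap and stood in the same order as for Msr1, within a range of 68.7 to 140. The fitted differences were -0.44 for AdOVA (SE 0.31, limma adjusted p = 0.42) and 0.79 for AdIkBa-SR against AdOVA (SE 0.31, limma adjusted p = 0.14).

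**Figure D3:**
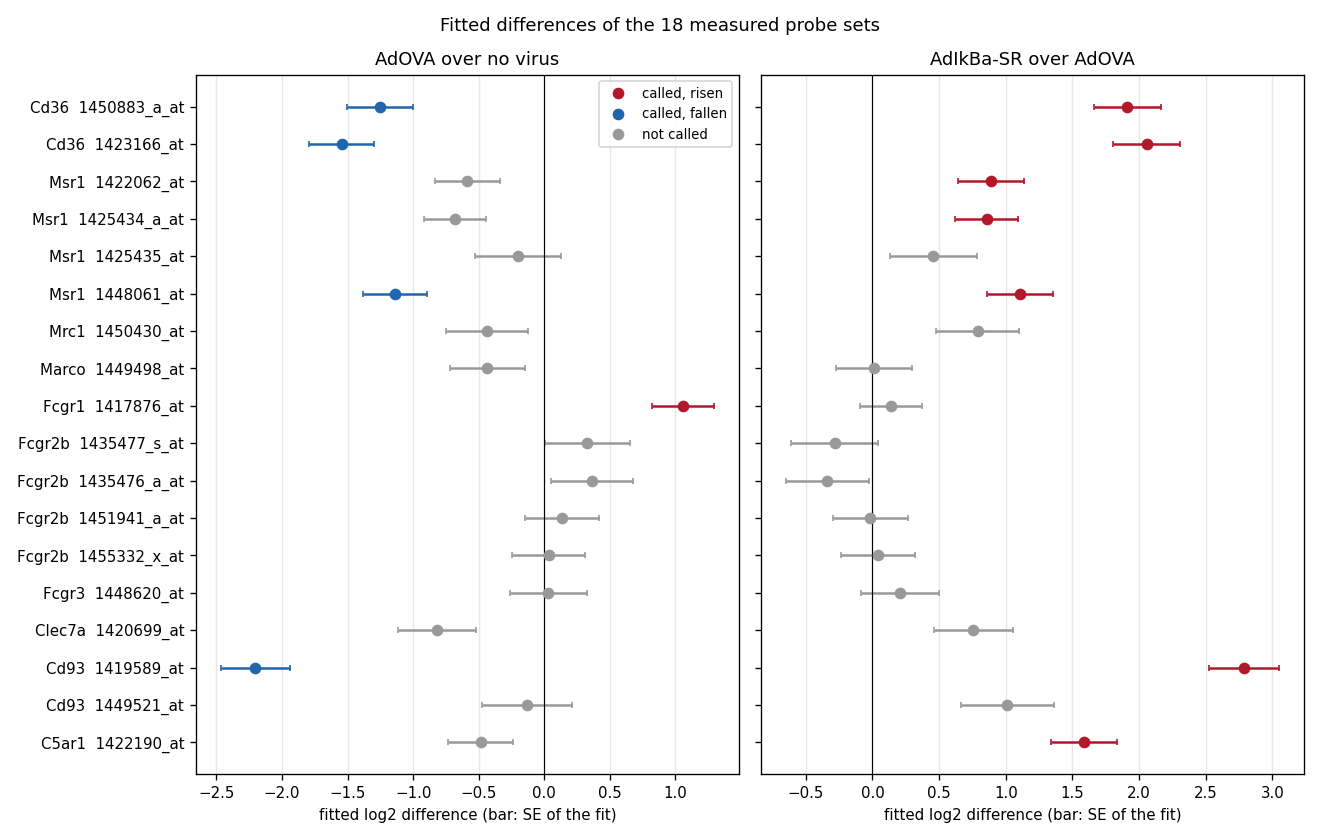
Fitted log2 difference of the 18 measured member probe sets, AdOVA against no virus on the left and AdIkBa-SR against AdOVA on the right. Bars are the standard error of the limma fit, red marks probe sets that rose, blue those that fell and grey those not called. On the left 4 points are blue and 1 is red, and on the right 7 are red and none is blue.

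Among the Fc receptors, Fcgr1, the high-affinity receptor for IgG, was the member that rose with AdOVA. Its only probe set read 659 untreated and 482 with TNFa, 1367 with AdOVA alone and 1011 with AdOVA+TNFa, and 1399 with AdIkBa-SR alone and 1198 with AdIkBa-SR+TNFa. All 4 arrays with virus lay above both arrays without, a placement found for Fcgr1 alone among the members and for 7.19% of all measured probe sets. AdOVA was 2.07-fold above untreated and AdOVA+TNFa 2.10-fold above TNFa. AdIkBa-SR was 2.12-fold above untreated and AdIkBa-SR+TNFa 2.48-fold above TNFa, while the AdIkBa-SR arrays were 1.02-fold and 1.18-fold above their AdOVA partners.

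Fcgr1 rose by 1.06 on the log2 scale with AdOVA (SE 0.24, limma adjusted p = 0.0095). That call held in 3 of 9 alternative fits, with the fitted difference between 0.91 and 1.12 in all of them. With AdIkBa-SR against no virus the difference was 1.20 (SE 0.24, limma adjusted p = 0.082), and with AdIkBa-SR against AdOVA it was 0.14 (SE 0.24, limma adjusted p = 0.77). The last was not distinguishable from 0 at this spread.

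The low-affinity receptors Fcgr2b, which is inhibitory, and Fcgr3, which is activating, were bright on every array and were not called in any comparison. The brightest Fcgr2b probe set, 1435477_s_at, read 5692 untreated and 6346 with TNFa, 9126 with AdOVA alone and 6243 with AdOVA+TNFa, and 6707 with AdIkBa-SR alone and 5730 with AdIkBa-SR+TNFa. The AdOVA array stood highest, 1.60-fold above untreated, but AdOVA+TNFa was 1.02-fold below TNFa, so the pairs disagreed. The 4 Fcgr2b probe sets gave fitted differences with AdOVA from 0.03 to 0.36. The probe sets of this gene ending in _s_at and _x_at, belong to classes that Affymetrix marks as able to bind related transcripts.

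Fcgr3 read 4700 untreated and 4347 with TNFa, 5361 with AdOVA alone and 3981 with AdOVA+TNFa, and 5628 with AdIkBa-SR alone and 5051 with AdIkBa-SR+TNFa. The arrays of the virus states overlapped, and both AdIkBa-SR arrays lay above both arrays without virus. The fitted differences were 0.03 for AdOVA (SE 0.29, limma adjusted p = 0.96) and 0.21 for AdIkBa-SR against AdOVA (limma adjusted p = 0.72). In the RefSeq annotation of GRCm38.p6, Fcgr2b and Fcgr3 lie on chromosome 1 with 10 genes between them, of which 1, Fcgr4, is protein coding.

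Cd93, a surface protein of myeloid and endothelial cells linked to the removal of apoptotic cells, showed the widest span of the members. Its probe set 1419589_at read 650 untreated and 427 with TNFa, 117 with AdOVA alone and 112 with AdOVA+TNFa, and 702 with AdIkBa-SR alone and 884 with AdIkBa-SR+TNFa. The AdOVA arrays lay far below all others, and both AdIkBa-SR arrays lay above both arrays without virus. AdOVA was 5.57-fold below untreated and AdOVA+TNFa 3.81-fold below TNFa. AdIkBa-SR was 6.01-fold above AdOVA, and AdIkBa-SR+TNFa 7.91-fold above AdOVA+TNFa within round 2.

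The fitted fall of Cd93 with AdOVA was -2.20 on the log2 scale (SE 0.26, limma adjusted p = 4.2e-05), rank 8 of 14906 counted from the lowest. Its difference between AdIkBa-SR and AdOVA was 2.79 (SE 0.26, limma adjusted p = 6.7e-06). A second, dimmer probe set, 1449521_at, read 102, 56.3, 55.5, 86.2, 124 and 157 in the same order. Both AdIkBa-SR arrays were again highest, but the AdOVA array was 1.84-fold below untreated and the AdOVA+TNFa array 1.53-fold above TNFa. Its differences were not called, at -0.13 for AdOVA (SE 0.35, limma adjusted p = 0.86) and 1.01 for AdIkBa-SR against AdOVA (SE 0.35, limma adjusted p = 0.085). The mean of both probe sets was -1.17 for AdOVA and 1.90 for AdIkBa-SR against AdOVA.

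C5ar1, the receptor for the complement fragment C5a, read 360 untreated and 455 with TNFa, 236 with AdOVA alone and 353 with AdOVA+TNFa, and 715 with AdIkBa-SR alone and 1052 with AdIkBa-SR+TNFa. The AdIkBa-SR arrays lay above all others, and the AdOVA+TNFa array lay just under the untreated one. AdIkBa-SR was 3.03-fold above AdOVA and 1.99-fold above untreated, and AdIkBa-SR+TNFa was 2.98-fold above AdOVA+TNFa and 2.31-fold above TNFa. The difference between AdIkBa-SR and AdOVA was 1.59 on the log2 scale (SE 0.25, limma adjusted p = 0.00084). AdOVA was 1.52-fold and AdOVA+TNFa 1.29-fold below the partner without virus, with a fitted difference of -0.49 (SE 0.25, limma adjusted p = 0.25).

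Some granulocyte markers were also higher with AdIkBa-SR than with AdOVA. Of 10 such genes, Prtn3, Camp and Ltf rose and none fell, against 3.47% and 3.39% of all measured probe sets. Their median was 0.84. Mpo (-0.42), Lcn2 (-0.15) and Cxcr2 (-0.019) were lower but not called, and the remaining genes were higher. In the fitted contrast without TNFa 0 of the 10 rose (0.436% of all) and the median was 0.38. In that with TNFa 3 rose (2.35% of all) and the median was 1.21. The summed signal of the 10 was 27247 untreated and 17995 with TNFa, 25587 with AdOVA alone and 17976 with AdOVA+TNFa, and 29545 with AdIkBa-SR alone and 33685 with AdIkBa-SR+TNFa. With AdOVA against no virus 0 of the 10 were called, and their median was -0.10. Of all measured probe sets, 4.03% rose and 3.86% fell in that comparison. The same shares apply to the marker lists that follow. Of 13 measured DC markers, Ccr7, which guides DC to lymph nodes, rose with AdOVA (1.29, limma adjusted p = 0.011) and fell with AdIkBa-SR against AdOVA (-1.68, limma adjusted p = 0.0021). Fscn1, an actin-bundling protein of mature DC, also fell with AdIkBa-SR against AdOVA (-1.24, limma adjusted p = 0.0043). Itgax went the other way, as given with the complement receptors. With AdIkBa-SR against AdOVA, Irf8 (0.53), Cd74 (0.35), H2-Eb1 (0.17) and H2-Aa (0.13) were higher and the remaining DC markers lower, none of these called. The DC medians were 0.05 with AdOVA and -0.09 with AdIkBa-SR against AdOVA, and those of all measured probe sets were 0.06 and -0.09. Of 8 measured macrophage markers, Cd68 and Apoe rose with AdIkBa-SR against AdOVA, and Apoe fell with AdOVA. In the former comparison Adgre1 (-0.25), Csf1r (-0.18) and Vsig4 (-0.39) were lower and the remaining genes higher, none of these called. The macrophage medians were -0.35 with AdOVA and 0.14 with AdIkBa-SR against AdOVA. The summed macrophage signal ran from 20692 on the AdOVA+TNFa array to 29997 on the TNFa array, and Cd163 was under the floor throughout. Of 5 measured mast cell markers, Cpa3 fell with AdOVA and rose with AdIkBa-SR against AdOVA. In the latter comparison Tpsab1 (-0.42) and Ms4a2 (-0.10) were lower and Cma1 and Kit higher, none of these called. The summed mast cell signal was 621 to 931, and Mcpt4 was under the floor on every array. Cd3e, Cd3d, Cd3g and Cd4 of T cells, Pax5 of B cells, Klrd1 and Nkg7 of NK cells and Col3a1 and Pdgfrb of stromal cells were under the floor on all arrays. Other genes of these lists were not: Zap70 of the T cell list read 168 to 486 and rose with AdOVA (1.11, limma adjusted p = 0.022), Cd28 read 87.4 to 206, and Blnk of the B cell list read 414 to 716. The part of other cell types in the receptor differences was not tested.

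**Figure D4:**
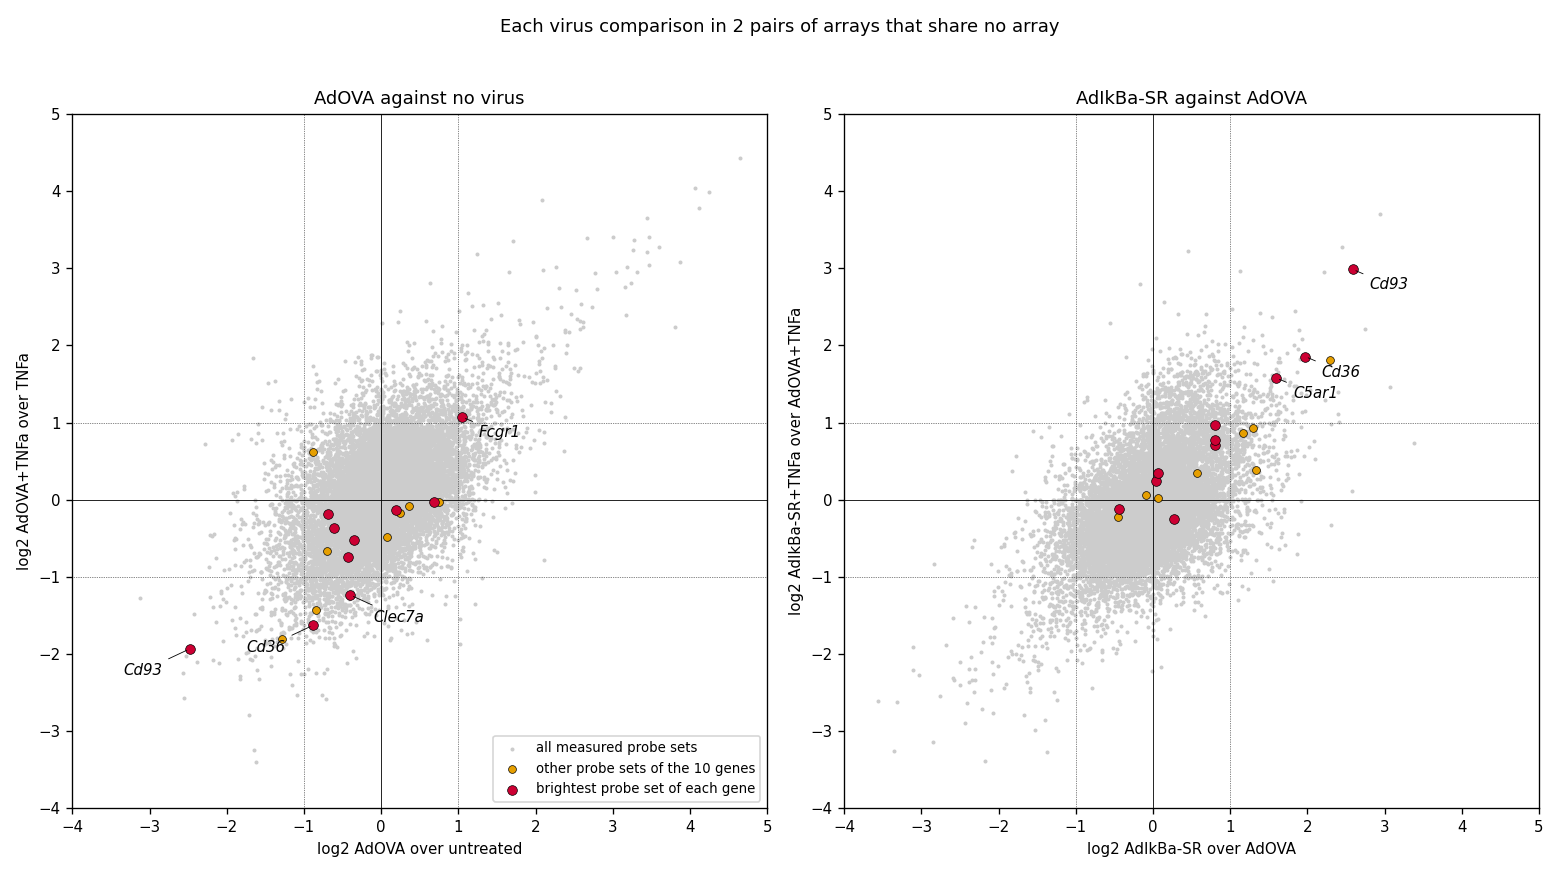
Log2 difference of every measured probe set in 2 pairs without an array in common, for AdOVA against no virus (left) and AdIkBa-SR against AdOVA (right). Grey points are all 14906 probe sets, red points the brightest probe set of each of the 10 genes, orange points their other probe sets, and dotted lines mark 2-fold. Cd93 and Cd36 lie low in both pairs on the left and high in both on the right, where C5ar1 is also past 2-fold in both.

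Read as folds alone, the pairs of arrays named fewer member probe sets than the fit in both of the following comparisons. For AdOVA against no virus, Cd93 and Cd36 (1423166_at) were at least 2-fold lower in both pairs, against 1.37% of all measured probe sets, and Fcgr1 at least 2-fold higher, against 1.91%. For AdIkBa-SR against AdOVA, 4 member probe sets, those of Cd36, Cd93 (1419589_at) and C5ar1, were at least 2-fold higher in both pairs, against 1.13%, and none was lower, against 1.65%. Both AdOVA arrays lay below the other 4 for 9 of 18 member probe sets, from 6 genes, against 12.5% of all, and above the other 4 for 0, against 21.1%. Both AdIkBa-SR arrays lay above the other 4 for 7 of 18, from Cd36, Msr1, Mrc1, Cd93 and C5ar1, against 4.27% of all. The AdOVA arrays enter both virus comparisons, so the low AdOVA signals bear on each.

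Against cells without virus, no member was called with AdIkBa-SR, where 0.0335% of all measured probe sets rose (5 of 14906) and 0 fell. At an unadjusted limma p under 0.05, 5 member probe sets were higher and none lower, among 431 higher and 384 lower of all 14906. The larger fitted differences were 1.20 for Fcgr1 and 1.10 for C5ar1 (SE 0.25, limma adjusted p = 0.14). Those of Cd36 and Cd93 were 0.66 (SE 0.25, limma adjusted p = 0.80) and 0.58 (SE 0.26, limma adjusted p = 0.89). Fcgr1 alone was at least 2-fold higher in both pairs, against 0.134% of all, and no member was lower, against 0.0403%. Cd36 was 2.13-fold higher without TNFa and 1.17-fold with it, and Cd93 was 1.08-fold higher without and 2.07-fold with it. The arrays without virus were in round 1 and those with AdIkBa-SR in round 2, and the AdIkBa-SR array also had another wash. In these pairs the virus and the round cannot be told apart.

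TNFa for 4 h changed no member past the threshold. In the TNFa response that the fit shares between no virus and AdOVA, 0 of 18 member probe sets were called by limma, and 0 also at an unadjusted p under 0.05. Of all measured probe sets 0.0268% rose (4 of 14906) and 0 fell, with 1653 at an unadjusted p under 0.05. No member was 2-fold apart in any TNFa pair. Of all measured probe sets, 0.731% reached 2-fold upwards and 1.05% downwards in untransduced cells. The same shares were 4.7% and 3.32% in AdOVA cells, and 2.03% and 0.832% in AdIkBa-SR cells. In both of the first 2 pairs together, 0.134% were higher and 0.168% lower. Of the TNFa pairs, only that of the untreated and TNFa arrays shared both round and wash. The AdOVA pair spans both rounds and includes the array with the high 18S signal, so TNFa and round cannot be told apart in it. The shared response draws on that pair too. C5ar1 was higher with TNFa in all 3 virus states, by 1.26-fold without virus, 1.50-fold with AdOVA and 1.47-fold with AdIkBa-SR. Fcgr1 was lower in all 3, by 1.37-fold, 1.35-fold and 1.17-fold, and Fcgr3 likewise by 1.08-fold, 1.35-fold and 1.11-fold. Their fitted shared responses were 0.46 for C5ar1 (SE 0.25, limma adjusted p = 0.52), -0.44 for Fcgr1 (SE 0.24, limma adjusted p = 0.51) and -0.27 for Fcgr3 (SE 0.29, limma adjusted p = 0.79). Clec7a was 1.41-fold higher with TNFa without virus, 1.27-fold lower with AdOVA and 1.36-fold lower with AdIkBa-SR.

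In AdIkBa-SR cells the TNFa response of every member missed the threshold, as did its difference from the shared response, with 0 calls over the whole table in both. At an unadjusted limma p under 0.05, 0 of 18 member probe sets passed in the first, among 502 higher and 258 lower of all 14906. In the second 1 of 18 passed, with a lower response, among 389 higher and 348 lower of all. The fitted response in AdIkBa-SR cells was -0.41 for Cd36 (SE 0.36, limma adjusted p = 1) and 0.56 for C5ar1 (SE 0.35, limma adjusted p = 1). These arrays also differ in their wash.

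Related receptors from 4 lists, chosen by known function, were read beside the members. Of 11 measured scavenger and apoptotic-cell receptors (16 listed), 0 were called with AdOVA by limma. At an unadjusted p under 0.05, 4 were lower, against 1648 of all 14906 probe sets. Cd68, a lysosomal scavenger receptor of macrophages, rose with AdIkBa-SR against AdOVA (1.11 log2, limma adjusted p = 0.016). It was the only one called there, and 3.47% of all measured probe sets rose. It read 3218, 2975, 2008, 1815, 3720 and 4548 in the order of arrays used above, lowest with AdOVA as for Cd36. The list's medians were -0.25 with AdOVA and 0.32 with AdIkBa-SR against AdOVA.

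Of 11 measured C-type lectins and lectin receptors (15 listed), 1 fell with AdOVA and none rose, against 3.86% and 4.03% of all measured probe sets. With AdIkBa-SR against AdOVA 1 rose and 1 fell, against 3.47% and 3.39% of all. Clec5a, which signals through an adaptor in myeloid cells, fell with AdOVA (-0.92, limma adjusted p = 0.041), with signals of 738, 1190, 560, 437, 974 and 669. Clec10a, a galactose-type lectin, rose with AdIkBa-SR against AdOVA (1.17, limma adjusted p = 0.020), with signals of 98.6, 79.7, 45.0, 56.1, 129 and 118. Clec4e (Mincle), a receptor for mycobacterial glycolipid, took the opposite course and fell with AdIkBa-SR against AdOVA (-1.29, limma adjusted p = 0.032). Its signals were 5712, 8414, 14715, 9924, 4629 and 5285, with both AdOVA arrays highest. The list's medians were -0.39 and 0.22.

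Of 13 measured Fc receptors and signalling genes (16 listed), Fcgr4, another activating IgG receptor, rose with AdOVA (0.96, limma adjusted p = 0.019) and none fell. Of all measured probe sets, 4.03% rose and 3.86% fell. Fcgr4 read 440, 375, 913, 687, 734 and 694, so that all arrays with virus lay above both without, as for Fcgr1. With AdIkBa-SR against AdOVA 0 of the 13 were called by limma, with 1 higher and 1 lower at an unadjusted p under 0.05. Of all 14906 probe sets, 1513 were higher and 1886 lower at that p. Fcer1g, the shared gamma chain, read 7052, 5013, 7218, 4231, 7028 and 7466 and was not called. The list's medians were -0.02 and 0.23.

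Of 13 measured complement receptors and components (19 listed), Itgax and C1qbp fell with AdOVA and none rose, against 3.86% and 4.03% of all measured probe sets. Itgax, the alpha chain of complement receptor 4 and the DC marker CD11c, read 699, 755, 247, 329, 664 and 847. It fell by 1.35 on the log2 scale with AdOVA (limma adjusted p = 0.0022) and was 1.40 higher with AdIkBa-SR than with AdOVA (limma adjusted p = 0.0021). C1qbp, a largely mitochondrial protein that binds C1q, fell by 0.98 with AdOVA (limma adjusted p = 0.020). Against AdOVA, AdIkBa-SR also gave higher Cfp (properdin, 1.09, limma adjusted p = 0.015) and lower Cfb (factor B, -0.88, limma adjusted p = 0.037). In that comparison 3.47% of all measured probe sets rose and 3.39% fell. The list's medians were -0.41 and 0.71. With TNFa 0 genes were called in each of the 4 lists by limma, and 1 or 2 per list passed an unadjusted p under 0.05 except in the complement list, where 0 did. Of all 14906 probe sets, 1653 passed.

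**Figure D5:**
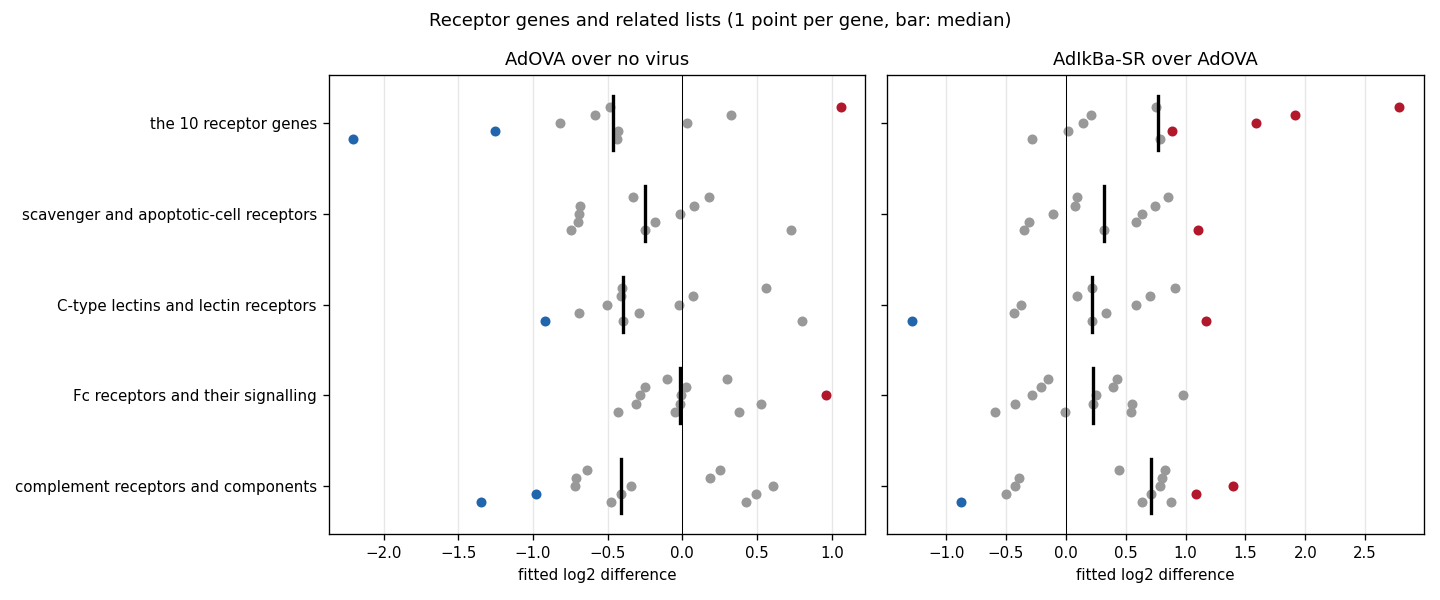
Fitted log2 difference of each gene in the set of 10 receptors and in the 4 related lists, for AdOVA against no virus (left) and AdIkBa-SR against AdOVA (right). Each point is 1 gene read from its brightest probe set, red and blue points rose and fell, grey points were not called, vertical spacing within a list only separates points, and the black bar is the median. The medians of the 10 receptors are -0.46 on the left and 0.77 on the right.

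The signal patterns closest to 3 members were found among 155 genes that exceeded the floor on all 6 arrays and spanned at least 4-fold, by Pearson's r of log2 signal over the 6 arrays. For Cd36 these were Ppbp (r = 0.98), Eps8 (0.95) and Ss18l2 (0.92). For Cd93 they were S100a4 (0.97), Nhp2 (0.97) and Ppbp (0.96). For C5ar1 they were Cdk18, Coro1a and Map2k2, with r of 0.92, 0.92 and 0.90. The points share their arrays and virus states, so these values describe likeness and were not tested.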

How the data were processed

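The authors deposited 1 linear intensity (signal) per probe set and array, computed by MAS5 (no version named) per the submitters' processing notes. The 10 genes, the related lists and the tests were chosen with earlier results of these data known. Array headers gave hybridization rounds and wash settings.

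Signals under the floor of 53.5 (40th percentile of non-control signals) were set to it, and log2 values were taken. Probe sets above the floor on at least 2 arrays (14906) were tested. Each gene is represented by its brightest probe set. Level differences between probe sets were not compared. limma 3.58.1 (R 4.3.3; lmFit, eBayes with trend) fitted 5 coefficients to 6 arrays: 3 virus states, 1 TNFa response common to no virus and AdOVA, and 1 TNFa response with AdIkBa-SR. Its spread is therefore the difference between TNFa responses without virus and with AdOVA, taken across probe sets, and is assumed to hold for the AdIkBa-SR arrays too. Fitted AdIkBa-SR contrasts use arrays of all virus states and can differ from the pair folds. The step was tested on simulated data. The fixed alternatives were array scaling, the floor, the filter, the mean over probe sets, an additive fit, the round as a block and leaving out arrays.

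Beyond the 10 genes, genes were named by rule: called genes of the 4 related lists (at most 4 per list and comparison) and the 3 closest patterns of members spanning at least 4-fold. Fcer1g was named after its values were seen.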

Additional observations from a re-analysis of the deposited data

How the results depend on the processing

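Member probe sets were counted again under each alternative. For AdOVA against no virus, the 1 rising call became 0 with equal medians, with quantile normalization, with the floor at the 25th percentile, with no filter on dim probe sets, with a block for the round and with AdOVA+TNFa left out. The 4 falling calls became 3 in the additive fit, where that of Msr1 was lost, 2 with quantile normalization and 2 with the lower floor, and 0 with no filter, with the block and without AdOVA+TNFa. For AdIkBa-SR against AdOVA, the 7 rising calls became 4 with quantile normalization, 4 with the lower floor, 4 in the additive fit and 4 without the AdIkBa-SR array, and 0 with no filter, with the block and without AdOVA+TNFa. With no filter, the dim Cd36 probe set 1450884_at gave 1 falling call for TNFa in AdIkBa-SR cells (-0.24, limma adjusted p = 0.029) and 1 for its difference from the shared response (limma adjusted p = 0.043), where there had been 0. The cause was not tested.

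Over all measured probe sets, the 600 rising and 575 falling calls with AdOVA became 308 and 602 with equal medians, 180 and 85 with quantile normalization, 151 and 88 with the lower floor, 315 and 177 in the additive fit, and 0 with no filter, with the block and without AdOVA+TNFa. The 517 rising and 506 falling calls between AdIkBa-SR and AdOVA became 621 and 238, 43 and 105, 52 and 88, and 132 and 234 under the same alternatives, 353 and 245 without AdIkBa-SR, and 0 in the last 3.

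Directions turned only for differences that were not called: Fcgr3 with AdOVA (-0.12 with equal medians, -0.034 with quantile normalization); the shared TNFa response of Cd36 (-0.088, additive fit), Msr1 (0.10, mean over probe sets), Clec7a (-0.10, additive fit) and Marco (-0.0038 in the additive fit, -0.17 both with the block and without AdOVA+TNFa); Marco between AdIkBa-SR and AdOVA (-0.24 with the block, -0.12 without AdIkBa-SR); and AdIkBa-SR against no virus for Fcgr2b (-0.061, quantile normalization) and Clec7a (0.31, with the block). Of the gene values refitted with a test, 319 kept direction and side of the threshold, 30 lost a call and 11 turned. Means over probe sets carry no test: 13 stayed within 1 SE of the fitted value, 1 turned and 2, both of Cd93, moved. No paired analysis was possible because each group has 1 array and the labels carry no replicate numbers.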
